A study of Bos indicus with 6 samples.

Results

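Retinoid transport, synthesis and receptor genes were followed in the isthmus of the bovine oviduct: the carrier RBP4, the uptake receptor STRA6, the retinal dehydrogenases ALDH1A1 and ALDH1A2, the cytoplasmic binding proteins CRABP1 and CRABP2, and the nuclear receptors RARA, RARB and RARG. They were taken from the expression table by their symbols, which gave 9 of the 24616 genes listed. In the table the Ensembl identifiers of these genes are ENSBTAG00000000442 (RBP4), ENSBTAG00000007348 (STRA6), ENSBTAG00000008103 (ALDH1A1), ENSBTAG00000010119 (ALDH1A2), ENSBTAG00000012909 (CRABP1), ENSBTAG00000005716 (CRABP2), ENSBTAG00000012500 (RARA), ENSBTAG00000011518 (RARB) and ENSBTAG00000007592 (RARG).

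Retinol, or vitamin A, circulates in blood bound to RBP4 and can enter cells through STRA6. Retinol dehydrogenases oxidise it to retinal, and the ALDH1A enzymes oxidise retinal to retinoic acid. CRABP1 and CRABP2 bind retinoic acid in the cytoplasm, and the retinoic acid receptors, paired with retinoid X receptors on DNA, regulate transcription when they bind it. CYP26 enzymes break retinoic acid down. Retinoic acid takes part in the development of the female reproductive tract and in the differentiation of its epithelia.

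Transcript abundance was measured by RNA-Seq of polyadenylated RNA in the whole wall of the isthmus ipsilateral to the ovulation, on day 4 after the GnRH injection that induced ovulation. All animals were multiparous, non-lactating Nelore (Bos indicus) cows that were presynchronised and then received an intravaginal progesterone device with estradiol benzoate, prostaglandin at device removal and GnRH. The 3 LF/LCL cows (large follicle, large corpus luteum) were also given prostaglandin when the device was inserted, and the device was withdrawn 42 h before GnRH. The 3 SF/SCL cows (small follicle, small corpus luteum) received no prostaglandin at insertion and kept the device until 30 h before GnRH. The sequenced cows were the highest ranked of the first group and the lowest ranked of the second by follicle size, estradiol, corpus luteum area and progesterone, so they are the extremes of their groups. Values are normalised read counts, that is, reads per gene divided by a size factor for each library. They are not divided by transcript length, so levels were not compared between genes.

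Libraries held between 23899117 and 34193164 reads assigned to genes. The library of SF/SCL cow 489215 stood apart from the others: on the first principal component, which carried 57.5% of the variance, it lay at 123 and the other 5 libraries lay between -50.4 and -0.119. It also had reads for fewer genes, 16944 against 17348 to 17718. The log2 difference of each member is therefore given with and without this cow, and without it the SF/SCL group holds 2 cows. Markers of the layers of the wall differed between libraries as well. Summed normalised counts of 8 fibroblast markers ranged from 311831 to 390364 in LF/LCL and from 162815 to 224798 in SF/SCL, and all 8 had lower log2 means in SF/SCL. Those of the 7 listed smooth muscle markers ranged from 712920.2 to 832284 in LF/LCL, and were 332939.7 and 390648 in SF/SCL cows 856 and 97 against 1203034 in cow 489215. Not every gene of that list followed its sum. In cow 489215 ACTA2, DES, CNN1 and TAGLN were highest of all cows, but SYNPO2 was lowest, at 9453 against 21782 to 32631 in LF/LCL. MYH11 in that cow lay below the LF/LCL range and LMOD1 inside it. Several epithelial markers lay higher in every SF/SCL cow than in every LF/LCL cow, cow 489215 included. EPCAM had 8529.6 to 12286 in LF/LCL and 15871 to 20313 in SF/SCL, and KRT7 had 743 to 2341 and 3423 to 5507. KRT8, KRT18 and the ciliated cell markers TPPP3 and CCDC39 were separated in the same direction. Other markers of these lists were not. The ciliated markers FOXJ1, TEKT1 and DNAH9 lay below every LF/LCL cow in cow 489215, and RSPH1 and CAPS overlapped. OVGP1, PAX8 and CLDN4 of the secretory and general epithelium list overlapped as well. In bulk tissue, fewer cells of a type and less RNA per cell cannot be told apart.

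In the limma test with Benjamini-Hochberg adjustment over the 15387 genes that passed the filter on low and variable values (mean above 5 and above the SD), 0 of 8 members differed between LF/LCL and SF/SCL at an adjusted p under 0.05, and 0.0% of all genes did. STRA6 did not pass that filter, because its SD over the 6 libraries (1961) was larger than its mean (1356). Its values come from the fit with the mean filter alone, in which 0.0% of 15922 genes passed. At an unadjusted p under 0.05, 1 of the 8 members (CRABP2, lower in SF/SCL) was called, against 8.66% of all genes. With the mean filter alone STRA6 was called as well at this threshold (unadjusted p = 0.0368), against 8.77% of all genes. On the recovered reads, edgeR and DESeq2 called 0 of 8 members at an adjusted p under 0.05, against 0.0% and 2.7% of all genes, and each called CRABP2 alone at an unadjusted p under 0.05, against 8.58% and 11.5%. The groups did not overlap in 3 of the 9 members, STRA6, ALDH1A1 and RARA, all higher in SF/SCL. Of the 15922 genes with a mean above 5, 18.1% did not overlap, 9.52% with the higher values in SF/SCL. The log2 difference, SF/SCL minus LF/LCL, was above 0 in 7 of the 8 members in the filtered fit and in 48.6% of all genes tested. Its median was 0.31 over the 9 members and -0.01 over all genes with a mean above 5.

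**Figure D1:**
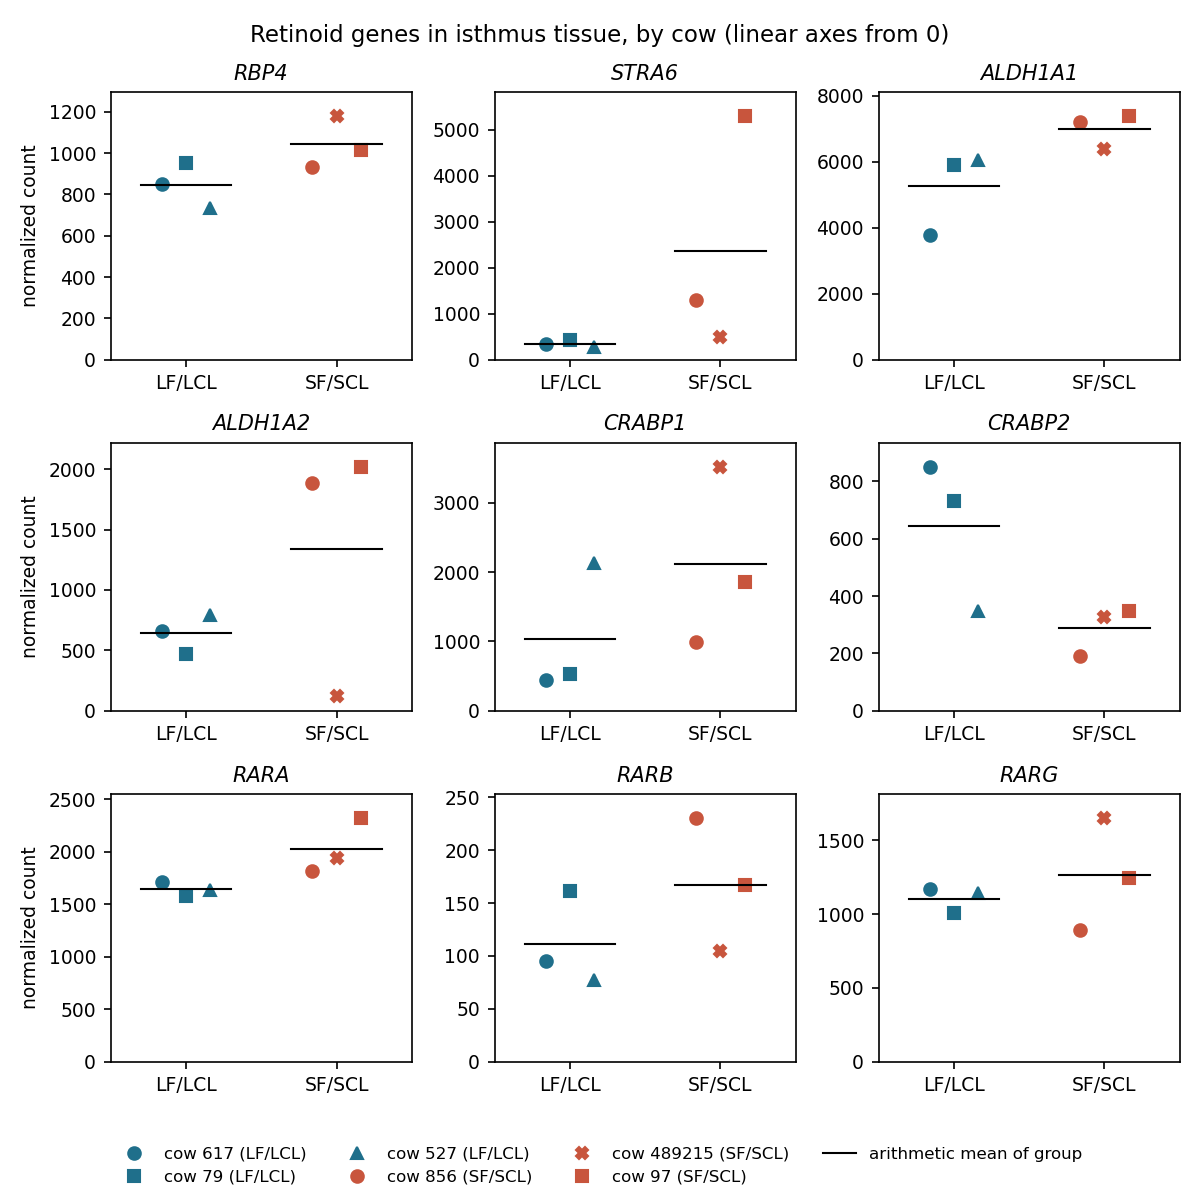
Normalised read count (y axis, linear from 0) of each of the 9 genes in the 3 LF/LCL and 3 SF/SCL cows. Each symbol is 1 cow and horizontal lines are arithmetic group means. The cross is SF/SCL cow 489215, which is the lowest of all 6 cows for ALDH1A2 and the highest for RBP4, CRABP1 and RARG.

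RBP4, the carrier of retinol in plasma, stayed within a 1.6-fold range over the cows. Normalised counts were 849.9, 949.9 and 735 in LF/LCL cows 617, 79 and 527, and 932, 1178 and 1015 in SF/SCL cows 856, 489215 and 97. The ranges overlapped, since cow 856 lay below cow 79. Group means were 845 ± 107 and 1042 ± 125 (SD, n = 3). The log2 difference was 0.30 with an SE of 0.20 (limma, 95% confidence interval -0.18 to 0.78, adjusted p = 0.766), and 0.21 without cow 489215 (limma adjusted p = 0.335). RBP4 is made mainly by the liver, and transcripts of 5 other liver products found in blood were read beside it. They summed to between 505 and 772 in LF/LCL and between 631 and 925 in SF/SCL. APOA1 made up most of these sums, with 461 to 733 in LF/LCL and 567 to 869 in SF/SCL. ALB, TTR, FGB and AHSG had low counts, the highest being 38.6 for ALB.

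STRA6, the membrane receptor that takes up retinol from RBP4, showed the widest spread of the 9 genes. Its normalised counts were 349.6, 419 and 281 in the LF/LCL cows. In SF/SCL they were 1301 in cow 856, 499 in cow 489215 and 5287 in cow 97. All SF/SCL values lay above all LF/LCL values, but cow 489215 was close to the LF/LCL range and cow 97 far above the other cows. The ratio of highest to lowest value was 18.8. The SD of log2 values over the 6 libraries, 1.60, lay at the 95.9 percentile of genes with a mean above 5.

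Mean STRA6 counts were 349.8 ± 68.8 in LF/LCL and 2362 ± 2564 in SF/SCL (SD, n = 3), a ratio of 6.75. In the limma fit with the mean filter alone the log2 difference was 2.13 with an SE of 0.81 (95% confidence interval 0.18 to 4.07, adjusted p = 0.518). Without cow 489215 the difference was 2.92 with an SE of 0.55 and a limma adjusted p of 0.0179, and 18.6% of all genes passed in that fit. Without cow 97 it was 1.22 (limma adjusted p = 0.733). Of the fits run for STRA6, only the one without cow 489215 passed the adjusted threshold.

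ALDH1A1, one of the enzymes that make retinoic acid, was higher in every SF/SCL cow than in every LF/LCL cow. Normalised counts were 3787, 5889 and 6065 in LF/LCL cows 617, 79 and 527. They were 7193, 6381 and 7373 in SF/SCL cows 856, 489215 and 97. The gap between the groups was small beside the distance of cow 617 from its own group. Means were 5247 ± 1268 and 6982 ± 528 (SD, n = 3), the log2 difference was 0.44 with an SE of 0.23, and the limma adjusted p was 0.675. Without cow 489215 the log2 difference was 0.50 (limma adjusted p = 0.145).

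ALDH1A2, which makes retinoic acid from retinal as ALDH1A1 does, was the member most changed by a single library. LF/LCL cows 617, 79 and 527 had normalised counts of 660.4, 468 and 792. SF/SCL cows 856 and 97 had 1886 and 2016, and cow 489215 had 121. Thus 2 SF/SCL cows lay above the LF/LCL range and the remaining one below it. With all cows the means were 640.4 ± 163 and 1341 ± 1058 (SD, n = 3), a ratio of 2.09. The log2 difference was 0.31 with an SE of 1.07 (limma, 95% confidence interval -2.27 to 2.88, adjusted p = 0.958). On the recovered reads the log2 difference was 1.07 in edgeR and in DESeq2 (adjusted p = 0.827 and 0.739).

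Without cow 489215 the ALDH1A2 ratio of means was 3.05 and the log2 difference 1.64 with an SE of 0.22 (limma, 95% confidence interval 1.11 to 2.16, adjusted p = 0.00633). ALDH1A2 was then the only 1 of the 8 members in the filtered fit that passed, in which 18.2% of all genes passed and 10.3% were higher in SF/SCL. Leaving out cow 856 or cow 97 instead turned the direction, to log2 differences of -0.34 and -0.38 (limma adjusted p = 0.912 and 0.905). Several markers were, like ALDH1A2, highest in cows 856 and 97, but not all of them were lowest in cow 489215. OVGP1, the oviduct-specific glycoprotein of secretory cells, had normalised counts of 271794 and 325158 in cows 856 and 97, 729.6 in cow 489215 and 287 to 1949.9 in LF/LCL. PAX8 of the same marker list was lowest in cow 489215, at 469, while EPCAM, KRT8, KRT7 and CLDN4 were highest there. The ciliated marker FOXJ1 had 12042 and 11225 in cows 856 and 97, 2609 in cow 489215 and 3436 to 6276 in LF/LCL. TEKT1 and DNAH9 were likewise lowest in cow 489215, at 1341 and 1697. The ciliated markers TPPP3 and CCDC39 lay above the LF/LCL range in that cow, and RSPH1 and CAPS inside it. CLDN4 had 344 and 457 in cows 856 and 97, 2167 in cow 489215 and 440.0 to 1074 in LF/LCL. The summed 8 mesothelial markers were 26304 and 26937 in cows 856 and 97, 3532 in cow 489215 and 2543 to 3436 in LF/LCL. MSLN and WT1 made up most of these sums in every cow.

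Among those mesothelial genes, WT1 had normalised counts of 8611 and 7984 in cows 856 and 97, 1037 in cow 489215 and 1180.5 to 1302 in LF/LCL. MSLN had 17589.6 and 18098 in cows 856 and 97, 2299 in cow 489215 and 808 to 1871 in LF/LCL. The mesothelial markers LRRN4 and BNC1 had their lower values in SF/SCL. LRRN4 had 175 to 412 in LF/LCL and 3.8 to 16.3 in SF/SCL, and BNC1 had 68 to 97.6 in LF/LCL and 16 to 23.5 in SF/SCL. UPK3B, UPK1B, CALB2 and HAS1 overlapped between the groups. UPK3B had 37.2 and 626 in cows 856 and 97 and 87.0 to 326 in LF/LCL, and CALB2 reached at most 6.84 in any cow. Of the 8 mesothelial markers none was at 0 in every library, and the part of these cell types in the ALDH1A2 values was not tested.

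**Figure D2:**
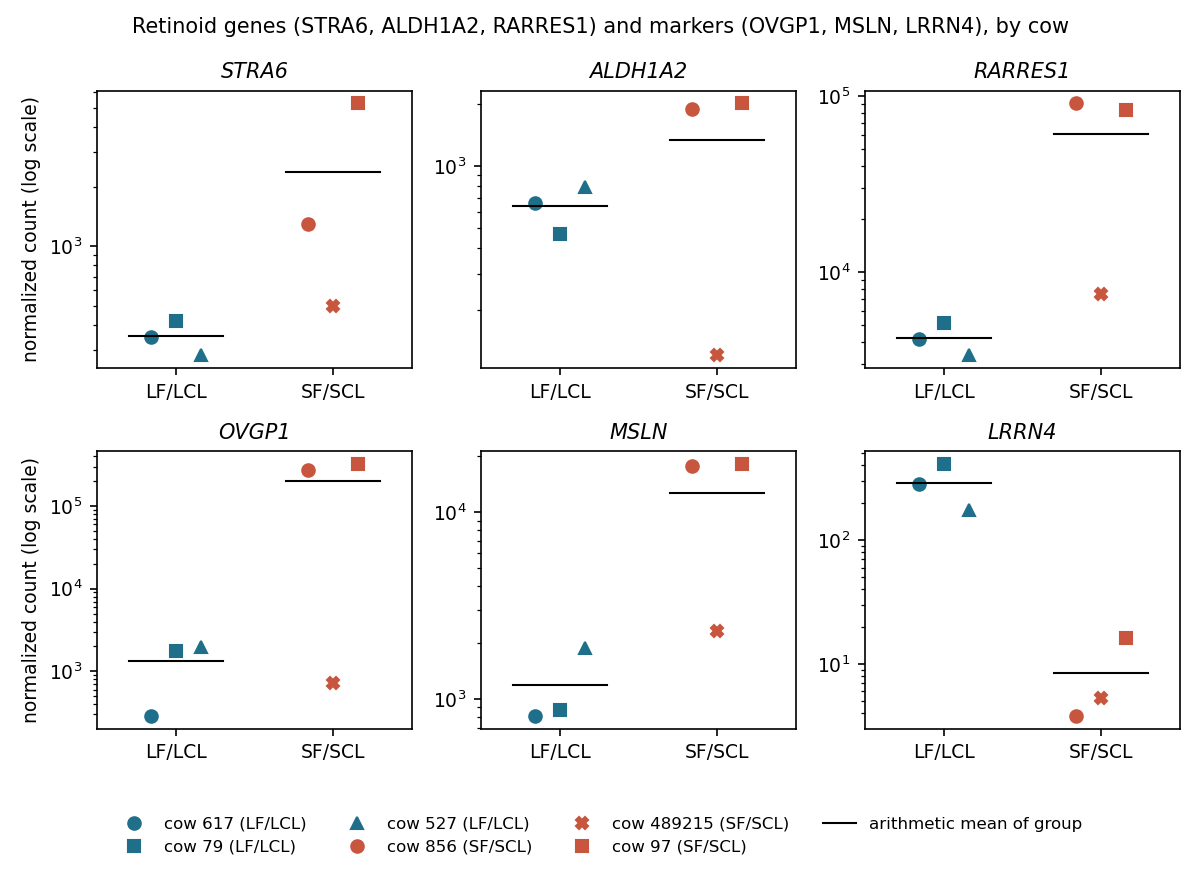
Normalised read count (log axes, scaled for each gene) of STRA6, ALDH1A2 and RARRES1, above the secretory marker OVGP1 and the mesothelial markers MSLN and LRRN4, in each cow, with symbols for cows and lines for arithmetic group means. ALDH1A2, RARRES1, OVGP1 and MSLN are highest in SF/SCL cows 856 and 97, and LRRN4 lies between 3.8 and 16.3 in SF/SCL and between 175 and 412 in LF/LCL.

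The share of ALDH1A2 in the reads of the ALDH1A1 and ALDH1A2 pair does not depend on the size factors, though it is not per length. It was 14.9%, 7.37% and 11.6% in LF/LCL cows 617, 79 and 527, and 20.8%, 1.86% and 21.5% in SF/SCL cows 856, 489215 and 97. The 95% Wilson interval of cow 489215 was 1.52% to 2.28% and that of cow 79 was 6.77% to 8.01%, which cover counting error only. Group means of 11.3% ± 3.75 and 14.7% ± 11.1 (SD, n = 3) differed by 3.45 percentage points (two-sided exact permutation p = 0.6, adjusted 0.75 over the 5 shares tested). The difference was 9.86 points without cow 489215, 0.41 without cow 856 and 0.0609 without cow 97. With 3 cows against 3, the smallest p this test can give is 0.1.

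CRABP1, a cytoplasmic binding protein for retinoic acid, varied about as much within each group as between them. Normalised counts were 446, 536 and 2126 in LF/LCL cows 617, 79 and 527, and 996, 3513 and 1864 in SF/SCL cows 856, 489215 and 97. Cow 527 lay above 2 of the 3 SF/SCL cows. Means were 1036 ± 945 and 2124 ± 1279 (SD, n = 3), and the log2 difference of 1.23 had an SE of 0.71 (limma, 95% confidence interval -0.48 to 2.93, adjusted p = 0.725). The log2 difference was 0.77 without cow 489215 and 1.93 without cow 527 (limma adjusted p = 0.465 and 0.999).

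CRABP2, which binds retinoic acid and delivers it to the receptors in the nucleus, was the only member with a lower mean in SF/SCL. Counts were 849, 733 and 346 in LF/LCL cows 617, 79 and 527, and 191, 326 and 349 in SF/SCL cows 856, 489215 and 97. LF/LCL cow 527 lay inside the SF/SCL range, so the groups overlapped by this cow. Means were 643 ± 263 and 289 ± 85.6 (SD, n = 3), a ratio of 0.449. The log2 difference was -1.10 with an SE of 0.43 (limma, 95% confidence interval -2.12 to -0.08, unadjusted p = 0.0388, adjusted p = 0.538). Of all genes tested, 4.48% had an unadjusted p under 0.05 and were higher in LF/LCL. Without cow 489215 the log2 difference was -1.21 (limma adjusted p = 0.103).

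Cow 527 was the LF/LCL cow with the most CRABP1 and the least CRABP2. CRABP2 made up 65.6% and 57.8% of the reads of the pair in cows 617 and 79, 14% in cow 527, and 16.1%, 8.5% and 15.8% in SF/SCL cows 856, 489215 and 97. CRABP2 thus held most of the reads of the pair in 2 cows, both LF/LCL, and cow 527 resembled the SF/SCL cows in this share. Group means of 45.8% ± 27.8 and 13.4% ± 4.29 (SD, n = 3) differed by -32.3 points (two-sided exact permutation p = 0.3, adjusted 0.75), and by -29.9 points without cow 489215.

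**Figure D3:**
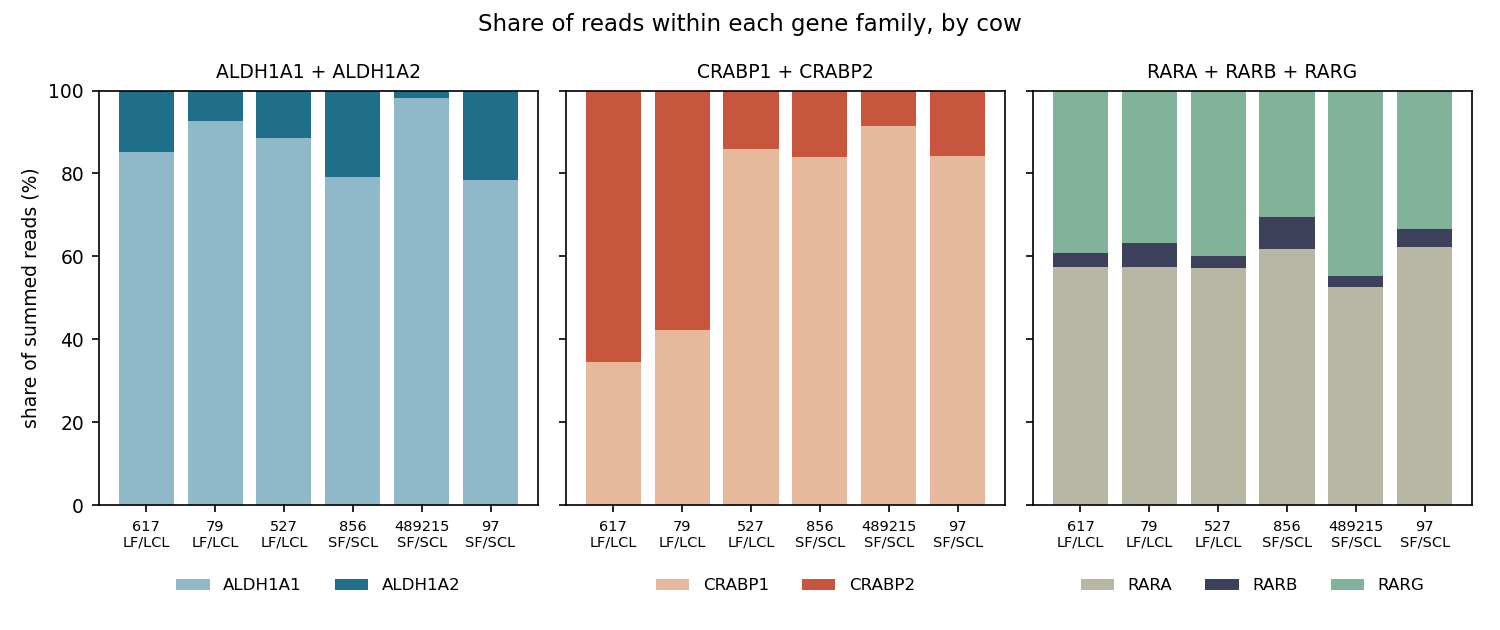
Stacked bars give the share of summed reads (percent, y axis from 0) of each gene within the ALDH1A1 and ALDH1A2 pair, the CRABP1 and CRABP2 pair and the 3 retinoic acid receptors, for each cow. In LF/LCL cow 527 the CRABP2 share is 14%, against 65.6% and 57.8% in the other LF/LCL cows, and in SF/SCL cow 489215 the ALDH1A2 share is 1.86%.

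RARA, a nuclear receptor for retinoic acid, was the least variable of the members. Normalised counts were 1710.2, 1577 and 1637 in LF/LCL cows 617, 79 and 527, and 1814, 1939.8 and 2318 in SF/SCL cows 856, 489215 and 97. All SF/SCL cows lay above all LF/LCL cows, by a narrow margin for cow 856. Means were 1641 ± 66.8 and 2024 ± 262 (SD, n = 3), a ratio of 1.23. The log2 difference was 0.29 with an SE of 0.17 (limma, 95% confidence interval -0.12 to 0.71, adjusted p = 0.725), and 0.32 without cow 489215 (limma adjusted p = 0.127). The log2 SD of RARA, 0.20, lay at the 12.1 percentile of genes with a mean above 5.

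RARB, a receptor gene that is itself a known target of retinoic acid, had the fewest reads of the 9 genes. Counts were 95.2, 161 and 77.3 in LF/LCL cows 617, 79 and 527, and 230.2, 105 and 167 in SF/SCL cows 856, 489215 and 97. Only cow 489215 fell within the LF/LCL range. The log2 difference was 0.59 with an SE of 0.44 (limma adjusted p = 0.803), and 0.88 without cow 489215 (limma adjusted p = 0.139).

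RARG, the receptor best known from skin and other epithelia, had counts of 1169, 1006 and 1143 in LF/LCL cows 617, 79 and 527. It had 893, 1649.6 and 1245 in SF/SCL cows 856, 489215 and 97. The SF/SCL cows lay on both sides of the LF/LCL range. The log2 difference was 0.15 with an SE of 0.26 (limma adjusted p = 0.912) and turned to -0.07 without cow 489215 (limma adjusted p = 0.814).

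Within the reads of the 3 receptor genes, RARA held 57.5%, 57.5% and 57.3% in LF/LCL cows 617, 79 and 527. In SF/SCL it held 61.8%, 52.5% and 62.1% in cows 856, 489215 and 97. The LF/LCL cows were nearly alike, and the SF/SCL cows lay on both sides of them. Means of 57.4% ± 0.107 and 58.8% ± 5.46 (SD, n = 3) differed by 1.38 points (two-sided exact permutation p = 1.0), and by 4.53 points without cow 489215. The RARB share differed by 1.13 points and the RARG share by -2.51 points (two-sided exact permutation p = 0.6 for each), and by 2.24 and -6.76 points without cow 489215.

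**Figure D4:**
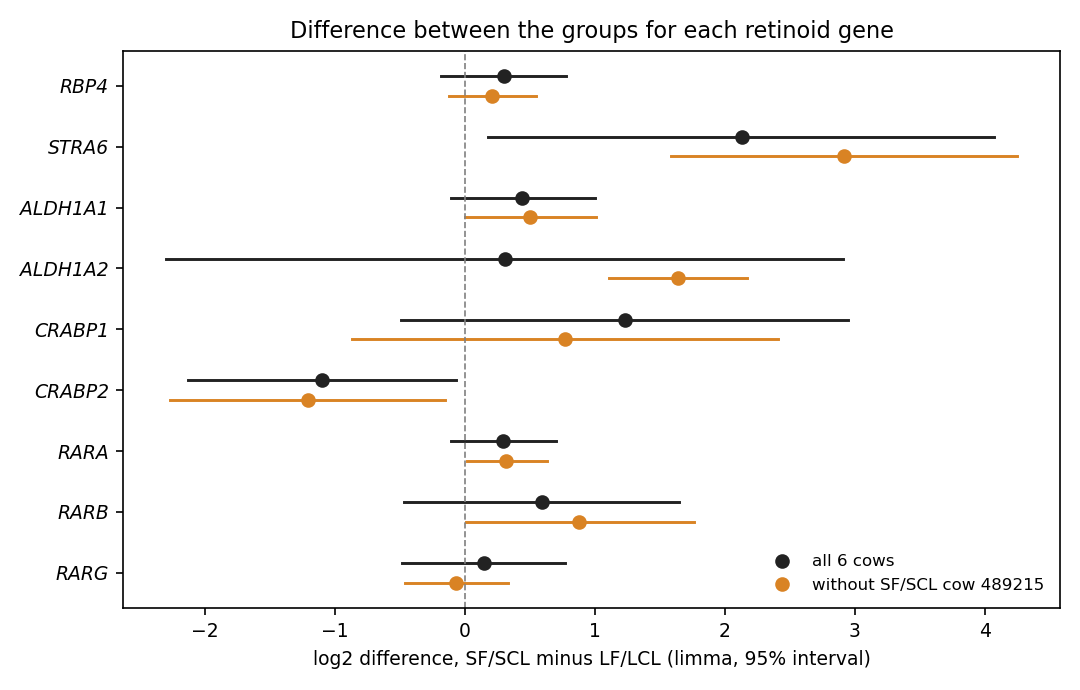
Log2 difference, SF/SCL minus LF/LCL, of the 9 genes with 95% confidence intervals from limma, with all 6 cows and without SF/SCL cow 489215. All genes are drawn from the fits with the mean filter alone, so intervals can differ slightly from those of the filtered fit given in the text. The ALDH1A2 estimate moves from 0.31 to 1.64 and its interval narrows when that cow is left out, while CRABP2 lies at -1.10 and -1.21.

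Without cow 489215 the groups did not overlap in 5 of the 9 members (STRA6, ALDH1A1, ALDH1A2, RARA and RARB), each higher in SF/SCL. In the same 5 libraries 52.3% of 15927 genes did not overlap, 27.6% with higher values in SF/SCL. At an unadjusted p under 0.05, 5 of 8 members in the filtered fit passed, against 33.9% of all genes. These were ALDH1A1, ALDH1A2, RARA and RARB, higher in SF/SCL, and CRABP2, lower in SF/SCL. STRA6 was not in that fit. The median log2 difference was 0.50 over the 9 members and 0.00 over all genes with a mean above 5.

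The remaining retinoid pathway was read from 5 lists, of which 57 genes were found in the table, 43 had a mean above 5 and 41 were tested. At an adjusted p under 0.05, 0 of the 41 were called by limma and 0 by edgeR on the recovered reads, and 1 (CYP2S1) by DESeq2, which called 2.7% of all genes. At an unadjusted p under 0.05 limma called 3, of which 2 were higher in SF/SCL (CYP2S1 and GPRC5A) and 1 higher in LF/LCL (ALDH1A3), against 8.66% of all genes. The groups did not overlap in 6 of the 43, 4 of them higher in SF/SCL, against 18.1% and 9.52% of all genes with a mean above 5. The median log2 difference was -0.09 over the 43. Without cow 489215, 5 of 42 passed the adjusted threshold with higher and 6 with lower values in SF/SCL, against 18.2% of all genes in either direction and 10.3% with higher values in SF/SCL.

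Carriers and storage proteins gave 6 tested genes, 2 with higher and 4 with lower means of log2 values in SF/SCL, and 0 were called at an unadjusted p under 0.05. SCARB1, a scavenger receptor that takes up carotenoids and lipoprotein lipids, had 924, 1033 and 870.4 in LF/LCL and 1196, 1474 and 973 in SF/SCL (log2 difference 0.35, limma adjusted p = 0.751).

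Enzymes of retinol and retinal metabolism gave 12 tested genes, 5 higher and 7 lower in SF/SCL. ALDH1A3, the remaining retinoic acid-forming member of its family, had its lower values in SF/SCL, where ALDH1A1 had its higher ones. Counts of ALDH1A3 were 589, 787 and 783 in LF/LCL cows 617, 79 and 527, and 235, 515 and 173 in SF/SCL cows 856, 489215 and 97. Every SF/SCL cow lay below every LF/LCL cow. The log2 difference was -1.37 with an SE of 0.43 (limma unadjusted p = 0.0164, adjusted p = 0.448), and -1.81 without cow 489215 (limma adjusted p = 0.004). DHRS4, a short-chain dehydrogenase that acts on retinal, and ADH5, an alcohol dehydrogenase, had log2 differences of -0.19 and 0.00 (limma adjusted p = 0.911 and 1.0). RDH16, a retinol dehydrogenase gene named after its values were seen, had few reads and did not pass the filter, with counts of 51.3, 5.63 and 13.2 in LF/LCL and 0, 5.33 and 1.08 in SF/SCL.

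The breakdown list held 2 genes with a mean above 5. CYP2S1, a cytochrome P450 that can oxidise retinoic acid, had counts of 78.5, 62.9 and 71.1 in LF/LCL cows 617, 79 and 527. It had 345, 85.2 and 426 in SF/SCL cows 856, 489215 and 97. All SF/SCL values were above the LF/LCL range, cow 489215 only just. The log2 difference was 1.71 (limma unadjusted p = 0.0319, adjusted p = 0.509; DESeq2 adjusted p = 0.0313), and 2.42 without cow 489215 (limma adjusted p = 0.00261). CYP26B1, a retinoic acid hydroxylase, had counts of 28.3, 42.2 and 48.3 in LF/LCL and 47.1, 18.6 and 23.8 in SF/SCL (log2 difference -0.47, limma adjusted p = 0.862).

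Partner receptors and coregulators gave 10 tested genes, of which 3 were higher and 7 lower in SF/SCL, and 0 passed an unadjusted p under 0.05. The corepressor NCOR1 had 5603, 5522 and 6063 in LF/LCL cows 617, 79 and 527, and 6921, 3664 and 7119 in SF/SCL cows 856, 489215 and 97. As for ALDH1A2, cow 489215 lay below the LF/LCL range and the other SF/SCL cows above it. The log2 difference of NCOR1 was -0.02 (limma adjusted p = 0.99). The median of the list was -0.39 with all cows and 0.26 without cow 489215. RXRG, a retinoid X receptor gene, had 9.39 to 17.8 in LF/LCL and 89.6, 14.6 and 43.4 in SF/SCL cows 856, 489215 and 97. It is named after its values were seen (log2 difference 1.37, limma adjusted p = 0.671).

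Genes known to respond to retinoids gave 14 tested genes, 6 higher and 8 lower in SF/SCL. The median log2 difference over the 15 genes of this list with a mean above 5, RARRES1 included, was -0.09. GPRC5A, a retinoic acid-induced membrane receptor, had counts of 14.7, 57.3 and 29 in LF/LCL cows 617, 79 and 527, and 52.4, 78.5 and 135 in SF/SCL cows 856, 489215 and 97. The groups overlapped, and the log2 difference was 1.47 (limma unadjusted p = 0.05 after rounding, adjusted p = 0.577). TGM2, a transglutaminase induced by retinoic acid, had 34319 to 43157 in LF/LCL and 24079 to 49804 in SF/SCL (log2 difference -0.16, limma adjusted p = 0.916). RARRES1, a retinoic acid receptor responder gene, did not pass the filter: it had 4181, 5096 and 3358 in LF/LCL and 90914, 7457 and 83203 in SF/SCL cows 856, 489215 and 97.

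**Figure D5:**
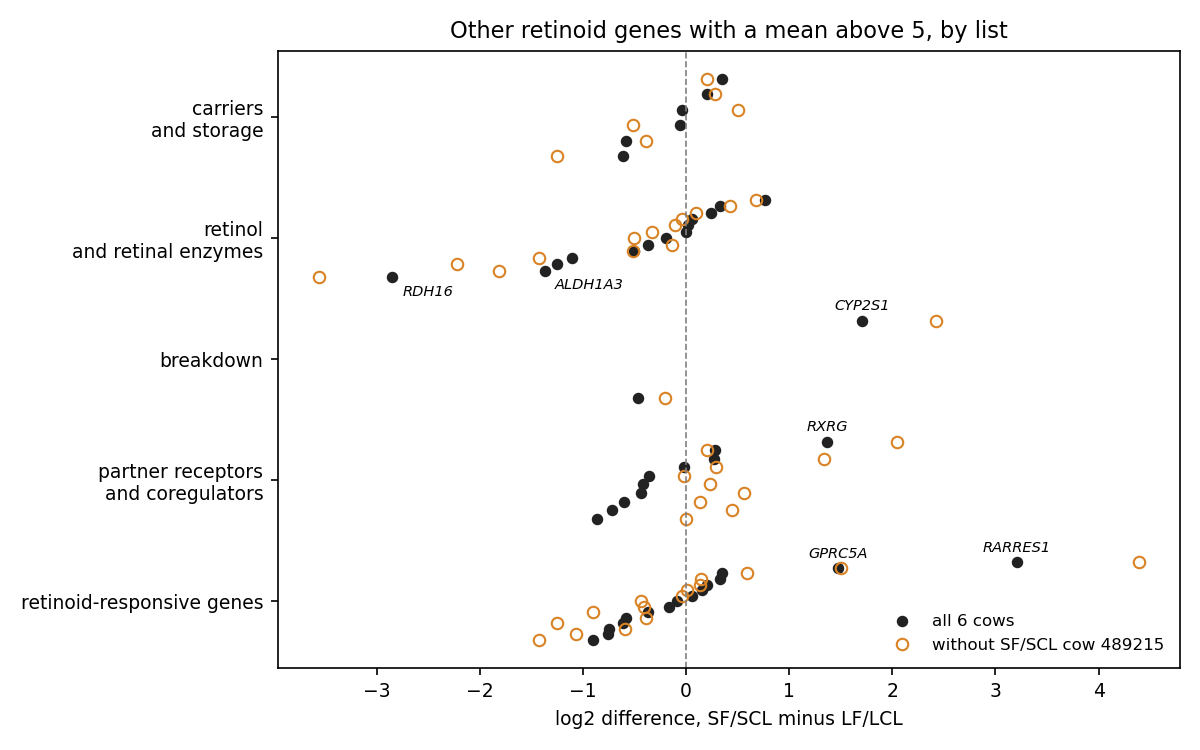
Log2 difference, SF/SCL minus LF/LCL, of the other retinoid genes with a mean above 5, grouped by list, with all 6 cows (filled) and without SF/SCL cow 489215 (open). RARRES1 and CYP2S1 lie farthest to the right among genes with a positive difference, and RDH16 farthest to the left, while ALDH1A3 lies at -1.37 with all cows.

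The genes whose log2 values were most like those of each member were ranked by Pearson's r over the 6 libraries among 12388 genes. With 6 points that share the same libraries, these values are a description. ALDH1A2 was followed most closely by ABCG1, ENTPD7 and INPP5E (r = 0.999, 0.999 and 0.998), which were also lowest in cow 489215 and highest in cow 97 and in which the order of the cows was that of ALDH1A2 (Spearman's rho = 1.0). CRABP1 was most like ENDOG, CTSL2 and HGFAC (r = 0.992, 0.987 and 0.987), and CRABP2 most like HMG20B, GJA4 and ETV5 (r = 0.991, 0.986 and 0.981). For RARA they included AGA and RARS2 (r = 0.993 and 0.988), for RARB SAV1 and RBM6 (r = 0.99 and 0.979), and for RARG FN3K, DOPEY2 and SFXN4 (r = 0.993, 0.989 and 0.987). RBP4 was most like CSTF2, DSCC1 and GRO1 (r = 0.973, 0.972 and 0.968), and ALDH1A1 most like CSAD, RENBP and MGC139228 (r = 0.993, 0.983 and 0.975).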

How the data were processed

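RNA-Seq libraries of the isthmus, 1 per cow (3 LF/LCL, 3 SF/SCL), were analysed. The authors filtered paired reads, mapped them with TopHat2 (2.0.8) and Bowtie2 (2.1.0) to the masked bovine assembly UMD 3.1, obtained read counts for Ensembl genes with HTSeq from reads that mapped once, and divided the counts by DESeq (1.12.1) size factors. The deposited values are therefore a normalised signal per gene. Whether counting used strand is not given in the sources used here. In each library 100% of 24616 values were whole multiples of the value of 1 read (within 0.000664 reads), so reads could be recovered. Size factors ran from 0.7511 to 1.3165.

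The main test was limma (3.58.1, trend and robust) on log2(value + 1), for genes whose mean over the libraries exceeded 5 as well as the SD, with Benjamini-Hochberg adjustment. A fold change on this scale understates the change of low genes. STRA6 was taken from the fit with the mean filter alone. Alternatives were edgeR (4.0.16) quasi-likelihood and DESeq2 (1.42.0) on recovered reads, TMM rescaling, pseudocounts of 0.5 and 5, other filters and leaving out each cow. On recovered reads edgeR called 0 genes at an adjusted p under 0.05 and 1320 at an unadjusted p under 0.05. For STRA6, leaving out a cow under the mean filter was added after the data were seen. Read shares were tested by exact permutation. Scripts were tested on simulated data.

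Members and lists were chosen with earlier results of these data known. Named genes are the 9 members. From the other lists they are the genes with an unadjusted p under 0.05 or, where fewer than 2, the 2 with the highest mean. The 3 genes most like each member in the filtered fit needed a symbol and a mean of at least 50. Some genes that these rules name are not reported here. RBPR2, RDH11 and BCO2, and the markers CDH1, ACTG2, PECAM1 and HBA1, were not matched by symbol, and the marker PIFO was at 0 in all libraries. Summed marker counts in LF/LCL and SF/SCL were 35638 to 47073 and 45000 to 67728 for ciliated epithelium. For secretory and general epithelium they were 23294 to 31833 and 49334 to 370159. OVGP1 made up most of that sum in cows 856 and 97 (271794 of 310623 and 325158 of 370159), but 729.6 of 49334 in cow 489215. The sums were 12480.3 to 16307 and 10193 to 13597 for endothelium, 2332 to 3998 and 1953 to 3561 for leukocytes, and 0 to 2.09 and 4.33 to 6.66 for erythrocytes.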

Additional observations from a re-analysis of the deposited data

How the results depend on the processing

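Of 119 alternative values for the single members, 114 kept the direction and the side of the adjusted threshold. The log2 difference turned for ALDH1A2 without SF/SCL cow 856 (-0.34) and without cow 97 (-0.38), and for RARG without cow 489215 (-0.07). Over the cows left out in turn it ran from -0.38 to 1.64 for ALDH1A2 and from -0.07 to 0.38 for RARG. It passed the adjusted threshold without cow 489215 for ALDH1A2 (1.64) and STRA6 (2.92). Over the cows left out in turn, 0 to 1 of the members that passed the filter on mean and SD in that fit (STRA6 only without cow 97) passed the adjusted threshold and 0 to 5 an unadjusted p under 0.05, and 3 to 5 of the 9 did not overlap. With either looser filter, 2 members passed the unadjusted threshold, since STRA6 was then tested. Over all genes, DESeq2 called 416 and the fits with a cow left out 0 to 2827. In the other retinoid lists DESeq2 called 1 gene, and the fits with a cow left out 0 to 11 at the adjusted and 0 to 15 at the unadjusted threshold. The difference in the ALDH1A2 share ranged from 0.0609 to 9.86 points and in the CRABP2 share from -48.2 to -22.4 points. The differences in receptor shares ranged from -0.295 (without cow 97) to 4.53 points for RARA, which was also below 0 without cow 856 (-0.0993), from -0.259 (without cow 856) to 2.24 for RARB, and from -6.76 to 0.358 (without cow 856) for RARG, and the cause was not tested.

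No paired analysis was possible because the groups share no replicate numbers. With 3 cows per group the intervals of the log2 differences were wide, from -2.27 to 2.88 for ALDH1A2, so differences within them were not detectable in these libraries. Adjusted p over the alternatives ranged from 0.103 to 0.999 for CRABP2, from 0.00633 to 0.999 for ALDH1A2 and from 0.0179 to 0.999 for STRA6.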
